A study of Mus musculus with 24 samples.

Results

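Inguinal fat of mice lacking Prxl2a was compared with inguinal fat of wild-type mice, using 6 of the 24 RNA-seq libraries of a study that also covered brown fat, brain and liver. The members were the 3 knockout (KO) and the 3 wild-type (WT) libraries of inguinal adipose tissue (IAT), taken by tissue and genotype from the labels. A gene is described here as apart when its 3 KO libraries all lay above, or all lay below, its 3 WT libraries in normalised level. Transcripts that followed lymph node or skeletal muscle in single libraries were set aside, and genes that were apart and not set aside are called reported genes below.

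Both groups were female mice of 12 weeks, flushed with PBS through the circulation and frozen in liquid nitrogen after dissection. The KO group carried the Prxl2a knockout and the WT group did not. The design text gives 3 mice per group, so libraries of different tissues may share animals. Neither strain, diet and littermate status nor the way the knockout was made is given in the sources used here.

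Prxl2a encodes a cysteine-containing relative of the peroxiredoxins with a thioredoxin-like fold, described as a redox regulator of osteoclast formation. Inguinal fat is the main subcutaneous white fat depot of the mouse. Its adipocytes make and store triglyceride and release fatty acids when noradrenaline acts on beta-adrenergic receptors. The depot surrounds an inguinal lymph node, lies over thigh and body wall muscle and, in females, holds mammary ducts, so a dissected piece contains these tissues in varying amounts.

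The 6 libraries held 16147506 to 17323705 counts. Of 19015 genes in the table, 14097 passed the filter on low counts in IAT. Levels are given as CPM, the counts scaled to a common library size with TMM factors, and always in the order of libraries 1, 2 and 3 of a group. Fold changes are log2 values of KO over WT with the standard error (SE) from edgeR. In bulk tissue, fewer cells of a type and less RNA per cell cannot be told apart.

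The libraries did not stand on an equal footing, and the differences between them come before any result. KO library 3 was close to an equal mixture of KO libraries 1 and 2. A sum of 0.501 times the counts of KO library 1 and 0.491 times those of KO library 2 fitted KO library 3 over 14313 genes with a median squared residual of 1.35 times the sampling noise. For the 21 libraries outside the IAT KO group, each fitted from the other libraries of its own group, this ratio was 2.76 to 10.36. KO library 3 lay between KO libraries 1 and 2 for 83.2% of genes, against 8.14% to 47.1% in the other libraries. How this came about was not tested. The SDs, SEs and p-values below count KO library 3 as a separate mouse, as its label does, and the results without it are given beside the main ones.

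**Figure D1:**
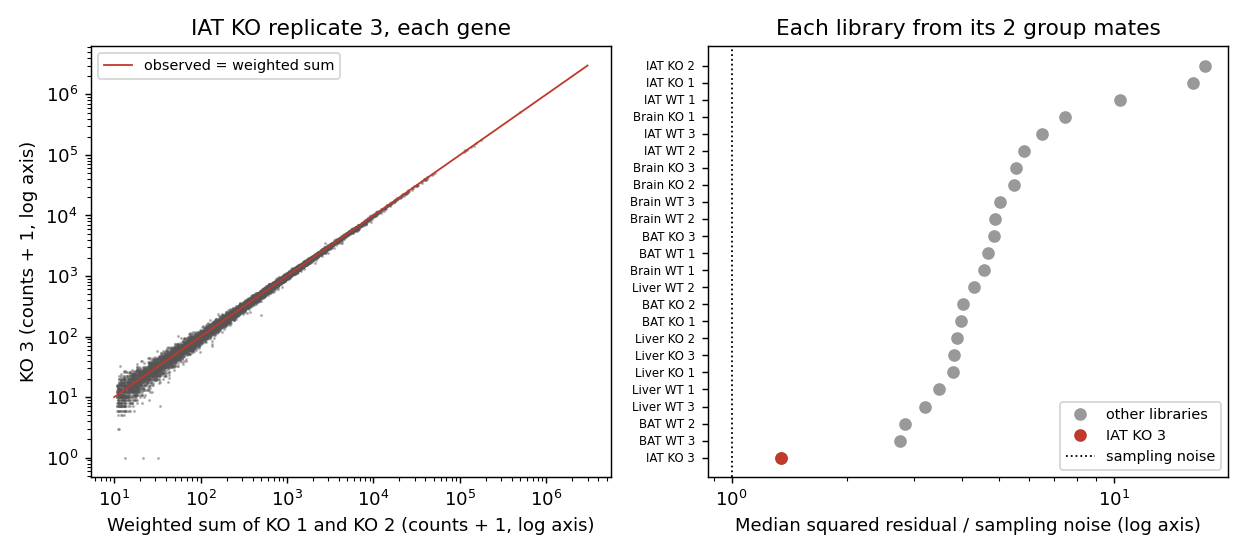
Left, counts plus 1 of each gene in IAT KO library 3 against the weighted sum of KO libraries 1 and 2, on log axes; the line marks equality and the points follow it over the whole range. Right, the median squared residual over sampling noise when each of the 24 libraries is fitted from the other libraries of its group, where IAT KO library 3 has 1.35 and the libraries outside the IAT KO group have 2.76 to 10.36.

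Lymph node transcripts separated the KO libraries from each other. Fcer2a, the low-affinity IgE receptor of B cells, had 137, 0.82 and 71.2 CPM in KO and 0.52, 0.87 and 0.72 CPM in WT. KO libraries 1 and 3 were far above all others, and KO library 2 was at the level of the WT libraries. Over the 29 tested genes of the lymphocyte list, the mean log2 CPM was 7.26, -0.20 and 6.28 in KO and 0.70, 1.27 and 0.39 in WT, and in none were the groups apart. The 10 tested lymph node stroma genes had means of 6.73, 3.88 and 6.16 in KO and 3.24, 3.00 and 3.28 in WT. Among them Ccl21a, a chemokine that guides lymphocytes into lymph nodes, had 997, 5.43 and 474 CPM in KO and 0 CPM in each WT library. Ccl21a has near-identical copies in the mouse genome, so its counts are uncertain.

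Skeletal muscle transcripts separated the WT libraries. Tnnt3, the troponin T of fast muscle fibres, had 0.91, 0.25 and 0.52 CPM in KO and 143, 538 and 0.96 CPM in WT. Acta1, skeletal muscle actin, had 0.74, 38.7 and 17.7 CPM in KO and 219, 940.2 and 2.75 CPM in WT. WT libraries 1 and 2 were rich in these transcripts and WT library 3 was not. The mean log2 CPM of the 18 tested muscle genes was 1.21, 0.69 and 1.29 in KO and 5.60, 7.23 and 0.48 in WT, and 3 of them (Tnnt3, Actn3 and Ryr1) were apart.

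Adipocyte transcripts were abundant in all 6 libraries and also varied within KO. Adipoq, the adipocyte hormone adiponectin, had 1270.3, 3569 and 2307 CPM in KO and 2848, 2355 and 2055 CPM in WT. The lowest and the highest library were both KO, so the groups overlapped. Plin1, which coats the lipid droplet, had 275, 839 and 517 CPM in KO and 804, 682 and 599 CPM in WT, with KO library 1 again the lowest. Lep, the satiety hormone leptin, had 343, 1470.4 and 836 CPM in KO and 678, 457 and 546 CPM in WT. The mean log2 CPM of the 22 white adipocyte genes was 8.41, 9.88 and 9.24 in KO and 9.73, 9.35 and 9.30 in WT.

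**Figure D2:**
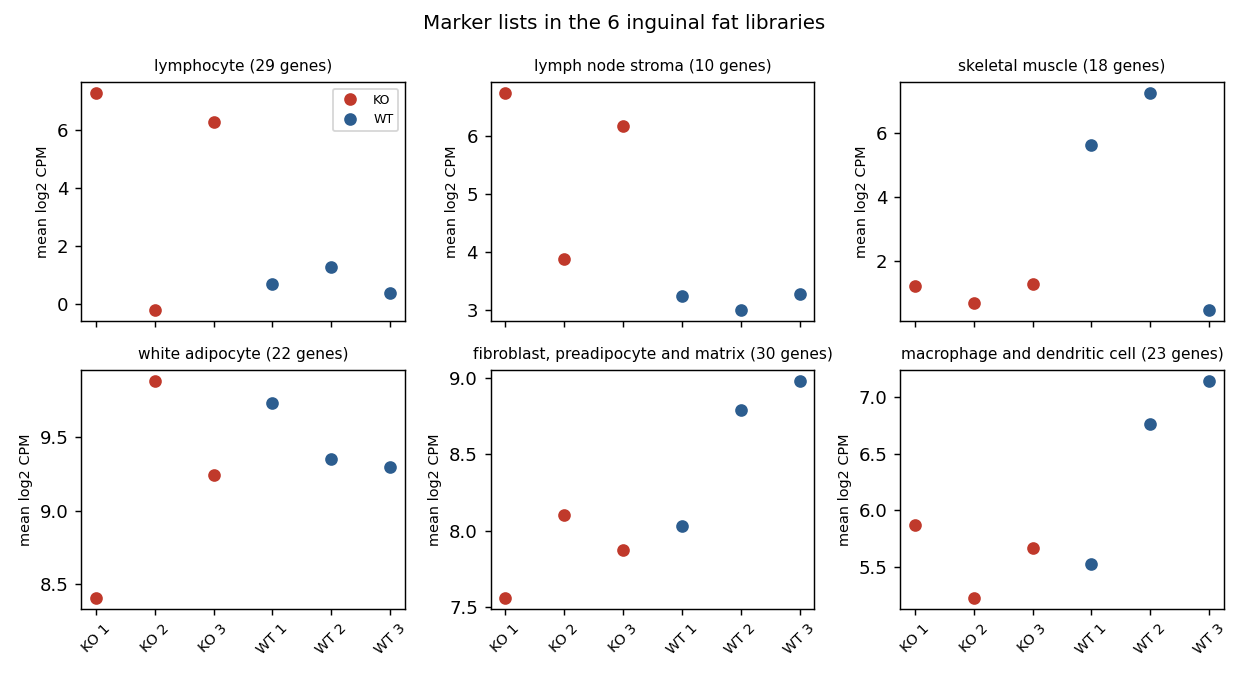
Mean log2 CPM of 6 marker lists in each IAT library, KO libraries left in red and WT libraries right in blue. Lymphocyte genes are at 7.26 and 6.28 in KO libraries 1 and 3 and at -0.20 in KO library 2, and skeletal muscle genes are at 5.60 and 7.23 in WT libraries 1 and 2 and at 0.48 in WT library 3.

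Prxl2a itself (gene 70564, GRCm38.p6 chr14:40993735-41013833) was low in all KO libraries. It had 9.57, 23.6 and 15.8 CPM in KO, against 506, 341 and 322 CPM in WT. On the scale that corrects for length, the authors' TPM values were 11.3, 24.4 and 18.6 in KO and 554, 382 and 349.5 in WT. The groups did not overlap, and the distance between the nearest KO and WT libraries was 3.76 on the log2 scale. The log2 fold change was -4.58 (SE 0.41), which did not pass the edgeR quasi-likelihood test after Benjamini-Hochberg adjustment (adjusted p = 0.0912). It passed without KO library 2 (edgeR adjusted p = 0.00213) and without WT library 1 (edgeR adjusted p = 0.0271), and not without KO library 3 (log2 fold change -4.55, edgeR adjusted p = 0.669).

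Across all genes, edgeR called 0 of 14097 genes (0%) at an adjusted p under 0.05, and 2226 (15.8%) had an unadjusted p under 0.05. The smallest edgeR adjusted p was 0.0855. The other tools gave different counts on the same libraries: DESeq2 called 1121 genes, of which 602 were reported genes, and limma-voom called 7. A single edgeR fit of all 24 libraries called 2573. Without KO library 2, the library poor in lymph node transcripts, edgeR called 1760 genes. Without WT library 1 it called 192, of which 188 were lower in KO, and without KO library 3 it called 0, with 1027 genes at an unadjusted p under 0.05. None of the genes below is therefore a called change in the edgeR test, and each is described by its levels.

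The groups were apart for 2602 genes (18.5%), with 1242 (8.81%) higher and 1360 (9.65%) lower in KO. Among these, 99 of the higher and 35 of the lower genes were set aside. The reported genes numbered 2468 (17.5% of those tested), with 1143 (8.11%) higher and 1325 (9.4%) lower in KO. Their median log2 fold change was 0.41 for the higher and -0.67 for the lower genes, against 0.02 over all tested genes. Groups this small are apart for some genes by the order of the libraries alone. This happens more often when a library is close to a mixture of the others in its group. How many genes would be apart by chance was not tested, so these counts do not show how many genes the knockout changed. A gap of at least 1 on the log2 scale between the nearest KO and WT libraries was found for 14 higher and 27 lower genes. At the edge of the rule, Pcf11 had 91.67, 49.279 and 67.91 CPM in KO and 49.278, 45.46 and 48.86 CPM in WT and was just apart. Tmem9b had 57.245, 55.84 and 52.09 CPM in KO and 57.60, 57.241 and 59.98 CPM in WT and just missed.

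Using KO libraries 1 and 2 alone, 2811 genes were apart, and 2602 of them (92.6%) stayed apart with KO library 3. KO library 3 lay between them for 83.2% of genes, and a library lying between them cannot undo a separation they share. This share, and the list counts with and without KO library 3 below, are therefore no independent check. Without KO library 3 the reported genes were 1302 higher and 1428 lower.

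The immediate early genes are switched on within minutes of a hormone, growth factor or stress signal, and many encode transcription factors of the Fos, Jun, Egr and Nr4a families. Of 30 tested members, 20 were lower in KO, with a median log2 fold change of -0.26 against 0.02 over all genes. In 10 members all KO libraries lay below all WT libraries, and 9 of these were reported genes, against 9.4% of all genes reported as lower. The 9 were Fos, Fosb, Egr1, Atf3, Nr4a1, Dusp1, Klf4, Klf6 and Socs3, and Egr2 was apart but set aside. The counts were also 10 and 9 without KO library 3, and 17 and 12 without KO libraries 1 and 3, when the median was -0.41. The mean log2 CPM of the whole list was 5.12, 4.51 and 4.92 in KO and 5.15, 5.08 and 5.16 in WT.

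Atf3, a stress-induced transcription factor of the ATF family, shared the smallest edgeR adjusted p with the predicted locus LOC115488503. It had 11.9, 11.7 and 11.8 CPM in KO, against 44.4, 35.7 and 38.1 CPM in WT. The KO libraries were nearly equal and all far below the WT libraries, with a log2 fold change of -1.74 (SE 0.14, edgeR adjusted p = 0.0855). DESeq2 gave an adjusted p of 1.56e-18 and limma-voom an adjusted p of 0.047 for it. Fosb, a partner of Jun proteins in the AP-1 factor, had 14.9, 23.0 and 17.3 CPM in KO and 169.8, 68.6 and 83.5 CPM in WT, with WT library 1 the highest (log2 fold change -2.54, SE 0.39). Egr1, a zinc finger factor induced by growth signals, had 44.8, 51.7 and 46.4 CPM in KO and 219, 136 and 142 CPM in WT (log2 fold change -1.80, SE 0.22). Fos, the founding AP-1 member, had 38.2, 46.4 and 40.5 CPM in KO and 255, 194 and 109 CPM in WT (log2 fold change -2.16, SE 0.32). WT libraries 1 and 2, the ones rich in muscle transcripts, were above WT library 3 for Fos, and this gene is set aside when the distance that defines the muscle pattern is 1.5-fold.

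The other immediate early genes were closer. Klf4, a Krüppel-like factor, had 48.2, 67.4 and 57.0 CPM in KO and 106, 151 and 149 CPM in WT (log2 fold change -1.24, SE 0.20). Nr4a1, an orphan nuclear receptor induced by adrenergic signals, had 26.7, 11.9 and 16.5 CPM in KO and 37.6, 35.1 and 46.1 CPM in WT. Dusp1, a phosphatase that switches off MAP kinases, had 85.3, 102 and 84.3 CPM in KO and 132, 145 and 121 CPM in WT. All 3 were lower in every KO library, but their edgeR adjusted p-values were 0.172, 0.235 and 0.225. A pair of members went the other way. Myc, a growth-promoting transcription factor, had 49.5, 35.8 and 45.4 CPM in KO and 18.8, 30.2 and 31.6 CPM in WT. Gadd45b, a stress-induced regulator of p38 kinase, had 35, 10.2 and 19.8 CPM in KO and 4.98, 7.05 and 6.94 CPM in WT. The order of the KO libraries for Gadd45b was that of the lymphocyte transcripts, and it was set aside at the 1.5-fold distance.

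The promoters of a pair of these genes show the motif through which cAMP-responsive and ATF factors are known to act, TGACG, searched on both strands in the 200 bases before the RefSeq start on GRCm38.p6. Atf3 (chr1:191183334-191183533, minus strand) holds it once, read as CGTCA, at 7 bases from the start. Fos (chr12:85473690-85473889, plus strand) holds it at 2 places, the nearer 66 bases from the start. The sequences run 5′ to 3′ towards the start and capitals mark the motif.
Atf3: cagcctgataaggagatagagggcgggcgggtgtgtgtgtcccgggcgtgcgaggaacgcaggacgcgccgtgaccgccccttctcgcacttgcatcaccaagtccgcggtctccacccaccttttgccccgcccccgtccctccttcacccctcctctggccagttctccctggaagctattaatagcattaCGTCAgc
Fos: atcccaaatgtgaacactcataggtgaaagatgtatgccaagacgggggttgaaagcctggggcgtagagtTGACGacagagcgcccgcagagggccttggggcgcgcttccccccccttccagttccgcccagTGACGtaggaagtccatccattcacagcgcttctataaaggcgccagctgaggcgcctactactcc
Over all 27025 mouse promoters of that length, 15.8% hold the motif. It was found in 11 of the 25 tested immediate early genes with a promoter in the table (44.0%) and in 5 of the 8 reported lower ones with a promoter (62.5%). A match describes the letters only.

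**Figure D3:**
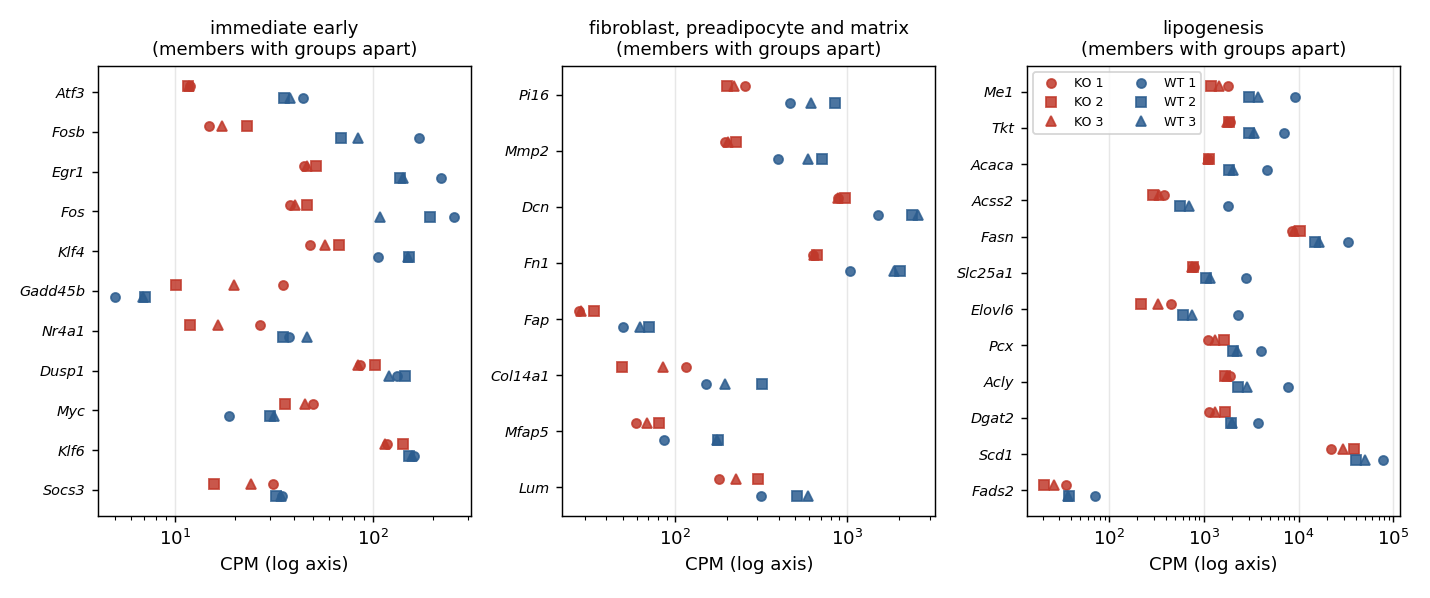
CPM of members whose groups were apart and that were not set aside, in 3 gene lists, on log axes; KO libraries in red above WT libraries in blue, marker shape giving the library number. Atf3 has nearly coincident KO points at 11.7 to 11.9 CPM, below WT at 35.7 to 44.4 CPM, and in the lipogenesis list WT library 1 is the highest library for every gene drawn.

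The enzymes of fatty acid synthesis were lower in KO as a group. Of 26 tested lipogenesis genes, 23 were lower, the median log2 fold change was -0.83, and 12 were reported genes, all of them lower, with or without KO library 3, against 9.4% of all genes. Me1, malic enzyme, which makes NADPH for the pathway, had 1784, 1202 and 1458 CPM in KO and 9261, 2971 and 3777 CPM in WT (log2 fold change -1.85, SE 0.52). Acaca, acetyl-CoA carboxylase, the committed step of the pathway, had 1116, 1146 and 1108 CPM in KO and 4617, 1837 and 2047 CPM in WT (log2 fold change -1.33, SE 0.42). Tkt, transketolase of the pentose phosphate pathway, had 1888, 1863 and 1764 CPM in KO and 6964, 3026 and 3424 CPM in WT. The KO libraries were close to each other for Acaca and Tkt, and WT library 1 was far above WT libraries 2 and 3.

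The other reported members were likewise lower in every KO library, with WT library 1 the highest. The remaining 14 members of the list overlapped, among them Srebf1, the main transcription factor of the pathway, and Elovl5. Acss2, which makes acetyl-CoA from acetate, had 384, 288 and 337 CPM in KO and 1798, 561 and 705 CPM in WT (log2 fold change -1.60, SE 0.47). Fasn, fatty acid synthase, had 8549.7, 10285 and 9042 CPM in KO and 33193, 14745 and 16407 CPM in WT. Elovl6, which lengthens palmitate, had 450.1, 218 and 332 CPM in KO and 2284, 603 and 761 CPM in WT. Scd1, stearoyl-CoA desaturase, had 21953, 38522 and 29059 CPM in KO and 77460.4, 40612 and 49715 CPM in WT, so that KO library 2 came close to WT library 2. The remaining reported members were Acly, Slc25a1, Dgat2, Pcx and Fads2. The edgeR adjusted p-values were 0.237 for Me1, 0.254 for Acaca and 0.586 for Scd1. Without WT library 1, 12 members were apart and the median of the list was -0.43, and without KO libraries 1 and 3 the median was -0.51.

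Other adipocyte genes moved less. Of the 22 white adipocyte genes, 15 were lower with a median of -0.21. Retn, Irs1 and Tmem120b were the 3 reported members, all lower, against 9.4% of all genes. Retn had 750, 1156 and 834 CPM in KO and 1670, 1172 and 1324 CPM in WT. The gaps of Retn and Irs1 were only 0.02 and 0.0045 on the log2 scale, so both were barely apart. Irs1, the docking protein of the insulin receptor, had 42.7, 118 and 73.7 CPM in KO and 119, 142 and 126 CPM in WT, and was set aside at the 1.5-fold distance. Tmem120b, a nuclear envelope protein needed for fat cell differentiation, had 113, 149.7 and 129 CPM in KO and 424, 193 and 183 CPM in WT. Without KO libraries 1 and 3, the median of the white adipocyte list turned to 0.38 (0.08 without KO library 1 alone), and 18 of 22 genes were higher in KO library 2 than in the WT mean.

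In the lipolysis and adrenergic list, 14 of 20 genes were lower. Of the 20, 4 were reported lower and 2 higher, against 9.4% and 8.11% of all genes. Adrb3, the beta-adrenergic receptor of adipocytes, had 78.4, 166 and 116 CPM in KO and 304, 254 and 193 CPM in WT (log2 fold change -1.06, SE 0.31, edgeR adjusted p = 0.243). Npr1, the receptor through which heart natriuretic peptides drive lipolysis, had 39.1, 55.3 and 48.1 CPM in KO and 61.9, 89.7 and 94.0 CPM in WT. Adcy9, an adenylate cyclase that makes cAMP, had 14.3, 26.6 and 19.1 CPM in KO and 28.8, 30.0 and 30.9 CPM in WT. These 3 genes were lower in every KO library. The cyclases did not go together: Adcy4 was higher in every KO library, with 21.2, 20.2 and 19 CPM in KO and 16.4, 18 and 16.4 CPM in WT (log2 fold change 0.25, SE 0.14, edgeR adjusted p = 0.401), and Adcy5 overlapped. G0s2, an inhibitor of the triglyceride lipase ATGL, was higher in KO, with 177, 326 and 225 CPM against 150.1, 156 and 165 CPM in WT (log2 fold change 0.63, SE 0.24, edgeR adjusted p = 0.296). KO library 1, the poorest in adipocyte transcripts, was the lowest library for Adrb3. The median of the list was -0.32, and it turned to 0.10 without KO libraries 1 and 3 and to 0.05 without WT libraries 1 and 2.

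Mitochondrial and thermogenic genes gave few members with groups apart. All 50 tested nuclear subunits of oxidative phosphorylation had a negative log2 fold change, with a median of -0.27. Ndufa11 alone was apart, against 9.65% of all genes apart and lower. It had 41.6, 57.5 and 46.7 CPM in KO and 79.8, 57.9 and 58.2 CPM in WT. Without KO libraries 1 and 3 the median was 0.09 and 36 of the 50 were higher, so the direction of this list rests on the lymph node rich libraries. None of 22 fatty acid oxidation genes was apart, against 18.5% of all genes in either direction. Among 17 tested thermogenic and beige fat genes, 2 were reported, both lower, against 9.4% of all genes. Ebf2, a transcription factor of brown and beige precursors, had 16.6, 32.5 and 26.6 CPM in KO and 44.2, 44.1 and 35 CPM in WT. Kcnk3, a potassium channel of beige adipocytes, had 19.5, 29.5 and 23.0 CPM in KO and 75.5, 32.5 and 30.4 CPM in WT. Ucp1 did not pass the filter on low counts.

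The redox systems to which Prxl2a is related had 1 reported member per list, lower in KO, against 9.4% of all genes reported as lower. Whether such small counts differ from that share was not tested. Of 22 peroxiredoxin, thioredoxin and glutaredoxin genes, 18 were lower with a median of -0.21, and Txnrd2, mitochondrial thioredoxin reductase, was the only reported member. It had 19.3, 25.8 and 22.6 CPM in KO and 39.4, 26.4 and 25.9 CPM in WT. Of 28 glutathione and NRF2 target genes, 21 were lower with a median of -0.26, and Ftl1, the ferritin light chain, was the only reported member, with 1402, 1464 and 1309 CPM in KO and 1678, 2074 and 2079 CPM in WT. Neither passed in edgeR (adjusted p = 0.366 for Txnrd2 and 0.354 for Ftl1). The medians of these lists turned to 0.09 and 0.11 without KO libraries 1 and 3, with 15 of 22 and 20 of 28 genes higher. Of 23 genes of sterol synthesis and uptake, 18 were lower and 5 higher, with a median of -0.24 (0.01 without KO libraries 1 and 3). Only 3 were reported, 2 higher and 1 lower, against 8.11% and 9.4% of all genes. Stard4, a sterol carrier, went against the median of the list and was higher, with 26.8, 14.4 and 18 CPM in KO and 14.1, 9.99 and 10.4 CPM in WT.

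Matrix and fibroblast genes were lower in KO. Of 30 tested members, 29 had a negative log2 fold change, the median was -0.80, and 8 were reported genes, all lower, with or without KO library 3, against 9.4% of all genes. Pi16, a marker of the fibroblast progenitors of fat, had 255, 200.1 and 219 CPM in KO and 464, 848 and 619 CPM in WT (log2 fold change -1.52, SE 0.26, edgeR adjusted p = 0.175). These cells give rise to new adipocytes and to matrix-producing fibroblasts. Mmp2, a gelatinase that degrades matrix, had 196, 226 and 203 CPM in KO and 395, 710.0 and 593 CPM in WT (log2 fold change -1.44, SE 0.25). Dcn, the small proteoglycan decorin, had 886, 971 and 883 CPM in KO and 1512, 2371 and 2584 CPM in WT. Fn1, fibronectin, had 631, 664 and 644 CPM in KO and 1032, 2011 and 1861 CPM in WT. The KO libraries were within a narrow band for these 4 genes, which had the widest gaps of the list, and WT library 1 was the nearest to them. The list means were 7.56, 8.10 and 7.87 in KO and 8.03, 8.79 and 8.98 in WT. By its mean, WT library 1 therefore lay within the KO range. Fap, Col14a1, Mfap5 and Lum completed the reported members. The main fibrillar collagens overlapped, since Col1a1 had 405, 759 and 559 CPM in KO and 596, 1097 and 1350.1 CPM in WT. The median and the count of genes apart were -1.07 and 22 without WT library 1, and -0.49 and 8 without WT library 3. The median was -0.50, with 7 genes higher, without KO libraries 1 and 3.

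Macrophage genes had a similar pattern over the libraries. Of 23 tested members, 18 were lower, the median was -1.35, and 8 were reported, all lower, with or without KO library 3, against 9.4% of all genes. Folr2, a folate receptor of resident macrophages, had 62.2, 53.9 and 54.0 CPM in KO and 82.0, 242 and 328 CPM in WT (log2 fold change -1.94, SE 0.48, edgeR adjusted p = 0.225). Adgre1, the F4/80 antigen, had 35.8, 30.3 and 30.5 CPM in KO and 50.9, 112 and 135 CPM in WT. Trem2, a lipid-sensing receptor of macrophages, had 2.94, 2.71 and 2.14 CPM in KO and 4.33, 18.4 and 23.0 CPM in WT. WT libraries 2 and 3 were well above the KO libraries, and WT library 1 was only slightly above them. Gpnmb, a lysosomal glycoprotein of lipid-laden macrophages, had 12.5, 10.8 and 12.2 CPM in KO and 29.2, 41.0 and 19.5 CPM in WT. Cd163, Csf1r, Cd14 and Itgam were the other reported members, and C1qa and Cd68 overlapped. The list means were 5.87, 5.23 and 5.67 in KO and 5.53, 6.76 and 7.14 in WT, so by its mean WT library 1 lay within the KO range. Without WT library 1, 17 of the 23 genes were apart.

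Mammary epithelium gave 6 reported genes among 17 tested members, all lower in KO, against 9.4% of all genes. Pgr, the progesterone receptor, had 4.19, 8.58 and 6.24 CPM in KO and 15.1, 41.2 and 45.8 CPM in WT (log2 fold change -2.42, SE 0.48, edgeR adjusted p = 0.211). Krt19, a luminal keratin, had 82.2, 98.2 and 89.7 CPM in KO and 241, 219.7 and 121 CPM in WT. Prlr, the prolactin receptor, had 71.2, 84.4 and 76.9 CPM in KO and 229, 191 and 100 CPM in WT, and with Krt19 it was set aside at the 1.5-fold distance. Krt14, a basal keratin, had 7.19, 5.93 and 6.81 CPM in KO and 9.24, 10.5 and 8.61 CPM in WT. Krt8, a luminal keratin, had 72.8, 121 and 94.0 CPM in KO and 133, 133 and 128 CPM in WT and was also reported. The luminal markers Epcam and Krt18 overlapped: Epcam had 44.6, 76.7 and 57.2 CPM in KO and 90.3, 62.1 and 45.3 CPM in WT. The list means were 4.23, 4.76 and 4.51 in KO and 5.36, 5.31 and 4.75 in WT, and the part of the gland content in the values of Pgr, Prlr and Esr1 was not tested. Without KO libraries 1 and 3 the median of the list was -0.23, against -0.58 with all libraries.

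**Figure D4:**
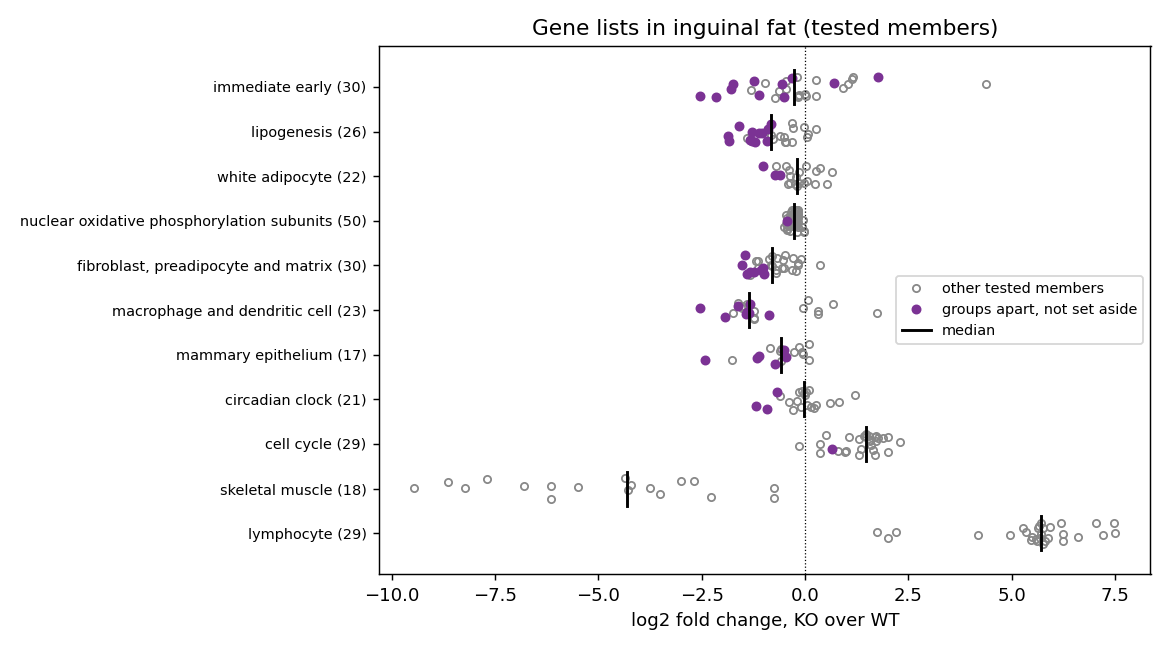
Log2 fold change of KO over WT for each tested member of 11 gene lists, with the number of tested members in brackets; filled points were apart and not set aside, open points are the other members, and bars mark medians. The medians of the macrophage, lipogenesis and matrix lists are -1.35, -0.83 and -0.80. The muscle and lymphocyte lists, at -4.31 and 5.71, can have no filled point, since all their members were set aside.

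The clock list went both ways, with 11 of 21 members lower, 10 higher and a median of -0.02, and 3 were apart, all lower in KO, against 9.65% of all genes. Nr1d1, the clock repressor REV-ERB alpha, had 20, 20.1 and 21.8 CPM in KO and 69.6, 46.3 and 25.7 CPM in WT. Dbp, a rhythmic output factor, had 63.8, 72.8 and 61.6 CPM in KO and 163, 132 and 79.1 CPM in WT. Nr1d2, the Nr1d1 paralogue REV-ERB beta, had 85.8, 84.4 and 86.1 CPM in KO and 161, 149 and 97.5 CPM in WT. In each, the KO libraries were nearly equal and WT library 3 was the lowest WT library and close to KO, and all 3 were set aside at the 1.5-fold distance. The time of day of dissection is not given in the sources used here.

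Wnt, BMP and TGF-beta signalling gave 2 reported members higher and 4 lower among 29, against 8.11% and 9.4% of all genes. Axin2, a feedback inhibitor and common readout of Wnt signalling, was higher, with 25.7, 23.7 and 22.1 CPM in KO and 13.0, 13.8 and 13.3 CPM in WT (log2 fold change 0.83, SE 0.14, edgeR adjusted p = 0.175). Both groups were narrow and well separated for it. Wnt10b, a ligand that restrains fat cell formation, was lower, with 5.83, 2.90 and 4.62 CPM in KO and 8.45, 15.4 and 9.93 CPM in WT. Gdf10, a BMP family ligand, had 22.9, 22.0 and 20.6 CPM in KO and 28.7, 31.2 and 31.9 CPM in WT. Smad7, an inhibitor of TGF-beta receptors, had 39.2, 13.7 and 23.6 CPM in KO and 11, 7.57 and 7.36 CPM in WT; its KO libraries followed the lymphocyte order, and it was set aside at the 1.5-fold distance with Wnt10b. Wnt2, a ligand outside this list, was among the genes with the widest gap, with 3.11, 3.85 and 3.87 CPM in KO and 8.71, 14.7 and 8.97 CPM in WT.

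Cell cycle genes followed the lymph node libraries. Of 29 tested members, 28 were higher in KO with a median of 1.47, but 22 were set aside. Tyms, thymidylate synthase, was the only reported member, against 8.11% of all genes reported as higher. It had 17.2, 11.1 and 14.3 CPM in KO and 6.95, 9.24 and 10.8 CPM in WT. The list means were 4.18, 2.37 and 3.55 in KO and 1.82, 1.91 and 2.77 in WT. Without KO libraries 1 and 3 the median of the list was 0.13.

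Among genes higher in KO with a plain symbol and a mean of at least 5 CPM, Pik3c3 had the widest gap. It encodes VPS34, the class III phosphatidylinositol kinase of autophagy and endosomes, and had 158, 109.7 and 127 CPM in KO, against 47.2, 40.3 and 41.5 CPM in WT (log2 fold change 1.61, SE 0.18, edgeR adjusted p = 0.108). In the authors' TPM it had 42.7, 25.7 and 33.8 in KO and 20, 18 and 16.0 in WT, a smaller ratio than in CPM. Gpr157, an orphan G protein-coupled receptor, had 19.3, 16.2 and 18.4 CPM in KO and 6.88, 7.51 and 5.98 CPM in WT. Nnt, the mitochondrial transhydrogenase that makes NADPH from NADH, had 46.4, 53.9 and 52.1 CPM in KO and 18.5, 21.8 and 25.2 CPM in WT (log2 fold change 1.22, SE 0.16, edgeR adjusted p = 0.128). Nnt is known to differ between common laboratory substrains of mice. Slc2a3, the glucose transporter GLUT3, had 43.9, 57.2 and 47.8 CPM in KO and 22.1, 19.1 and 25 CPM in WT. For all 4 genes the KO libraries lay well above the WT libraries, and none followed the lymph node or muscle order by a 1.5-fold distance.

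The other higher genes covered several functions. Vhl, the ubiquitin ligase subunit that marks hypoxia-inducible factors for degradation, had 44.1, 42.7 and 43.4 CPM in KO and 24.8, 26.9 and 27.7 CPM in WT (log2 fold change 0.71, SE 0.12). Myb, a transcription factor of blood progenitors, had 24.8, 20.7 and 24.3 CPM in KO and 6.16, 13.3 and 11.5 CPM in WT, and KO library 2 was the lowest of KO but above all WT libraries. Nedd9, a docking protein abundant in lymphocytes, had 80.3, 37.9 and 62.6 CPM in KO and 18.3, 19.4 and 25 CPM in WT. Cd82, a tetraspanin, had 118, 70.0 and 90.5 CPM in KO and 45.8, 44.4 and 42.5 CPM in WT. KO libraries 1 and 3 were above KO library 2 for both Nedd9 and Cd82, and Nedd9 was set aside at the 1.5-fold distance with Tgm1. Cdk5rap1, Wdfy1, Axin2, Tgm1 and Dnaaf3 were also among the genes with the widest gaps.

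Among genes lower in KO with a plain symbol and a mean of at least 5 CPM, Lrmda had the widest gap after Prxl2a. It encodes a leucine-rich protein that human melanocytes need to differentiate, and lies on chromosome 14. It had 0.96, 1.83 and 0.98 CPM in KO, against 13.4, 8.49 and 10.8 CPM in WT (log2 fold change -3.11, SE 0.36, edgeR adjusted p = 0.11). KO libraries 1 and 3 were below KO library 2, all at low levels, and Lrmda was set aside at the 1.5-fold distance. Gfpt2, which feeds the hexosamine pathway, had 37.0, 36.4 and 35.6 CPM in KO and 87.9, 133 and 109 CPM in WT (log2 fold change -1.60, SE 0.18). Hr, the hairless corepressor of nuclear receptors, had 24, 21.5 and 23.6 CPM in KO and 55.1, 52.6 and 66.3 CPM in WT (log2 fold change -1.33, SE 0.14). For Gfpt2 and Hr the spread within KO was small against the distance to WT.

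Abca6, a lipid transporter of the ABC family, had 15.9, 14.6 and 17.6 CPM in KO and 39.0, 55.2 and 47.5 CPM in WT (log2 fold change -1.56, SE 0.18, edgeR adjusted p = 0.11). Hcn4, a pacemaker channel, had 1.87, 2.02 and 2.08 CPM in KO and 5.70, 14.3 and 8.91 CPM in WT. Sycp3, a protein of the meiotic chromosome axis, had 2.10, 3.22 and 3.00 CPM in KO and 10.6, 9.82 and 7.54 CPM in WT. Both were low in all 6 libraries, below 15 CPM, and still did not overlap. Lrrn4cl, Ahnak2 and Itgbl1 were the other members of the 14, with log2 fold changes of -1.85, -1.74 and -1.72.

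Among reported genes outside that rule, and named here after their values were seen, 5 had gaps wider than Lrmda. Entpd4 had 0 CPM in every KO library and 3.47, 6.12 and 3.17 CPM in WT, and Gm21451 had 0 CPM in every KO library and 2.29, 4.91 and 6.10 CPM in WT. Both lie on chromosome 14 beside Entpd4b. Entpd4 and Entpd4b are near-identical copies that can exchange reads in the estimation, so their levels are uncertain. Whether Gm21451 shares reads with them was not tested, so its level is uncertain too. LOC115488029 had 183, 104 and 146 CPM in KO and 7.47, 6.76 and 14.2 CPM in WT, and LOC115488503 had 84.8, 55.1 and 68.7 CPM in KO and 8.91, 5.66 and 6.64 CPM in WT. LOC115489454, the remaining gene, averaged 5.99 CPM in KO and 0.039 CPM in WT. What these 3 predicted loci encode is not given in the files, and all 5 were among the 7 genes that limma-voom called (adjusted p = 0.047 or 0.0471), with Prxl2a and Atf3.

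**Figure D5:**
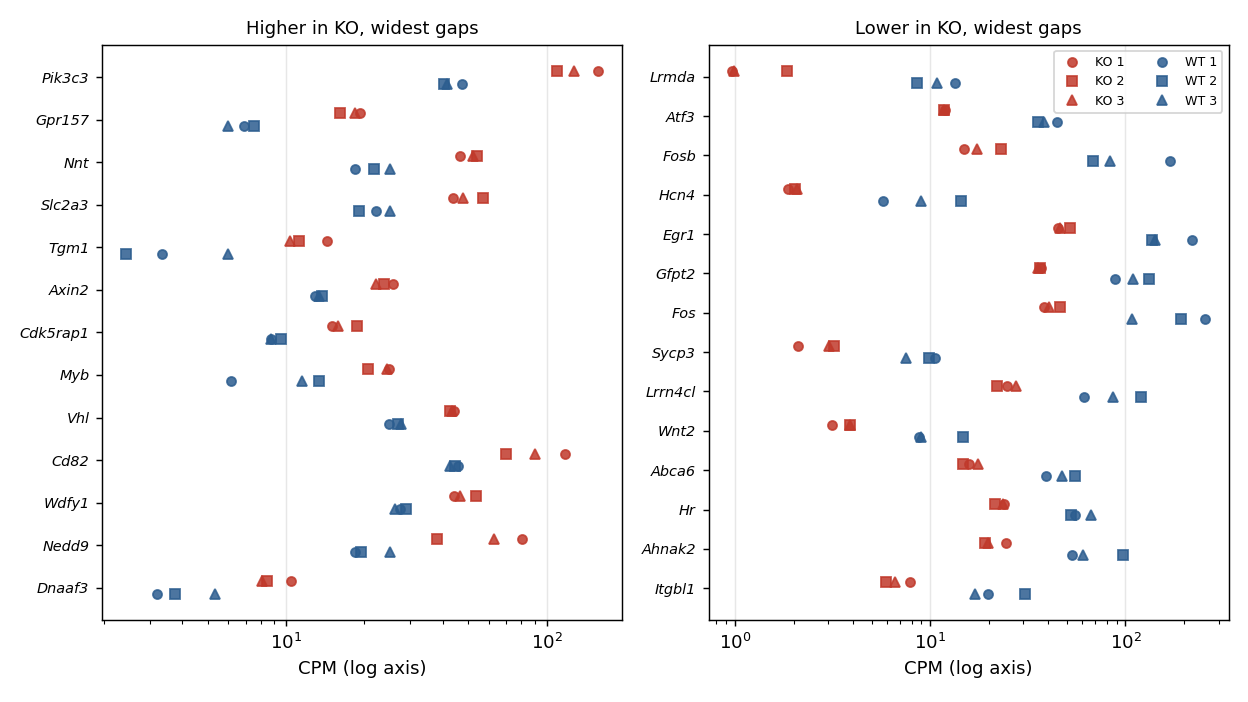
CPM in each library, on log axes, of 13 reported genes higher in KO (left) and the 14 lower in KO (right) with the widest gap between the groups; KO libraries in red above WT libraries in blue, marker shape giving the library number. Pik3c3 is at 109.7 to 158 CPM in KO and 40.3 to 47.2 CPM in WT, and Lrmda at 0.96 to 1.83 CPM in KO and 8.49 to 13.4 CPM in WT.

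The other tissues gave the same comparison in libraries from outside this depot, possibly of the same mice. In brown fat, 27.5% of the reported higher genes that were tested there were apart in the same direction, against 14.4% of all genes tested in both tissues, and for the reported lower genes the shares were 19.5% and 11.3%. In liver the shares were 15.8% against 10.6% for higher and 19.3% against 10.9% for lower genes. In brain they were 10.3% against 6.64% and 5.25% against 5.95%, so the reported lower genes were not above the background there. Over all genes tested in each tissue, the groups were apart for 14.3% (higher) and 11.3% (lower) in brown fat, 6.53% and 5.99% in brain, and 10.6% and 11% in liver. Of the genes that edgeR called in the same direction elsewhere, 12 of 49 higher (24.5%) and 7 of 19 lower (36.8%) calls in brown fat were reported genes of inguinal fat. So were 17 of 71 (23.9%) and 11 of 66 (16.7%) in liver and 2 of 2 and 2 of 5 in brain. Over all genes tested in inguinal fat, 8.11% were reported higher and 9.4% lower. The targeted gene Prxl2a is itself among the shared lower calls of each tissue, and in brain Entpd4b is the only other. The calls were 0.389% and 0.151% of genes tested in brown fat, 0.576% and 0.535% in liver, and 0.0139% and 0.0348% in brain.

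Wdfy1, Pik3c3, Nnt and Cdk5rap1 passed the edgeR test in other tissues. They were named for wide gaps in inguinal fat, but also by a rule that picks genes called in other tissues. Their passing there is therefore no independent finding. Wdfy1, an endosomal adaptor of Toll-like receptor signalling, had 44.2, 53.8 and 46.5 CPM in inguinal KO fat and 27.3, 28.9 and 26.3 CPM in WT (log2 fold change 0.81, SE 0.13). It rose in all 3 other tissues, by a log2 fold change of 1.23 in brown fat (edgeR adjusted p = 0.0105), 1.17 in brain (edgeR adjusted p = 0.0314) and 0.65 in liver (edgeR adjusted p = 0.0207). Pik3c3 rose in brown fat (log2 fold change 0.88, edgeR adjusted p = 0.0105) and liver (log2 fold change 1.66, edgeR adjusted p = 0.000801). Nnt rose in brain (log2 fold change 0.82, edgeR adjusted p = 0.0445) and liver (log2 fold change 1.66, edgeR adjusted p = 5.08e-05). Cdk5rap1, an enzyme that modifies mitochondrial tRNAs, rose in brown fat (log2 fold change 0.66, edgeR adjusted p = 0.0275), and in inguinal fat it had 15.1, 18.8 and 15.9 CPM in KO and 8.78, 9.59 and 8.73 CPM in WT.

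Among lower genes, Entpd4b, a nucleotide-cleaving enzyme of the Golgi, fell in all 3 other tissues (edgeR adjusted p = 0.0337 in brown fat, 0.034 in brain and 0.00783 in liver). In inguinal fat it had 40.7, 46.4 and 39.7 CPM in KO and 95.4, 83.5 and 82.1 CPM in WT. It has a near-identical copy, Entpd4, so its counts are uncertain. Lrmda fell in brown fat (log2 fold change -2.85, edgeR adjusted p = 0.0192). Plac9b and Timp2 fell in liver (edgeR adjusted p = 0.0403 and 0.0162), and Plac9b too has a near-identical copy. Entpd4b, Plac9b and Timp2 were named only because edgeR called them in other tissues, and Lrmda was picked by that rule too. Their passing there follows from this choice. Timp2, an inhibitor of metalloproteinases, had 411, 331 and 346 CPM in inguinal KO fat and 587, 1338 and 1118 CPM in WT. Nr1d1 and Nr1d2 fell in liver (edgeR adjusted p = 0.0467 and 0.0208), and Adcy9 and Atf5 in brown fat (edgeR adjusted p = 0.0275 and 0.0483).

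Atf3, Fos and Egr1 had overlapping groups in brown fat, brain and liver, and Fosb did in brown fat and brain; the other immediate early genes were not compared there. Atf3 averaged 12.3 CPM in KO and 13.4 CPM in WT brown fat (log2 fold change -0.13, SE 0.73), and 4.96 CPM in KO and 7.03 CPM in WT liver. Egr1 averaged 8.60 CPM in KO and 53.0 CPM in WT liver (log2 fold change -2.62, SE 0.90, edgeR adjusted p = 0.202). Acaca overlapped in brown fat, brain and liver, and Me1 was apart in brown fat, at a mean of 709.8 CPM in KO and 1519 CPM in WT (log2 fold change -1.10, SE 0.30, edgeR adjusted p = 0.144). Whether these differences differ between tissues was not tested.

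Genes near Prxl2a were also looked at. Of 490 tested genes on chromosome 14, 96 were reported genes (19.6%), against 15% to 20.1% on the other chromosomes. Tspan14, whose annotated start coordinate lies 0.09 Mb from that of Prxl2a, averaged 98.4 CPM in KO and 88.2 CPM in WT (log2 fold change 0.16) and was apart. Lrmda, Tgm1, Hr, Itgbl1, Tkt, Plac9b and Entpd4b also lie on chromosome 14, at 10.44 to 82.67 Mb from Prxl2a by the same measure. Adcy4, Ebf2 and Nr1d2 lie within that range, and Gdf10 lies nearer to Prxl2a than these genes but farther than Tspan14.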

How the data were processed

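RNA-seq was read from 1 deposited table of 19015 genes. Expected counts, deposited by the authors per the file headers, are RSEM estimates and were rounded to whole numbers; TPM values were deposited too by the authors, scaled within each library. The submitters' processing notes list RSEM 1.3.1, Bowtie2 2.3.4.3, DESeq2 1.4.5 and GRCm38.p6, without an annotation release. RefSeq held 18958 of the gene IDs. A further 48 per-sample columns were not used.

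The 6 IAT libraries were tested with edgeR 4.0.16 in R 4.3.3 (TMM, filterByExpr, quasi-likelihood F-test, Benjamini-Hochberg adjustment, threshold 0.05), as was each other tissue. The SE was taken from the F statistic. Log2 CPM used a prior count of 2. A gene was set aside if it belonged to the lymphocyte, lymph node stroma or skeletal muscle list, if KO libraries 1 and 3 both differed from KO library 2 by over 1 on the log2 scale on the same side, or if WT libraries 1 and 2 both did so from WT library 3. Differences between libraries of a group may be technical as well as biological. Fits were tested on simulated data.

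Named genes were Prxl2a, the 14 reported genes in each direction with the widest gap, a plain symbol and a mean of at least 5 CPM, up to 4 reported members per list with the widest gap, the 8 genes called in most other tissues, and marker genes. Other list members and Tspan14 were named after their values were seen. The results of 3 genes that the rule names are not reported here. The members and the 27 gene lists were chosen with earlier results of these data known. Alternatives were DESeq2 1.42.0, limma 3.58.1, RLE factors, other filters, TPM, covariates, a replicate block and leaving libraries out.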

Additional observations from a re-analysis of the deposited data

Results flagged for a closer look

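A few of the named reported genes of inguinal fat were apart in the opposite direction in another tissue. Over all reported genes, those higher and lower in inguinal fat were apart the opposite way for 4.99% and 3.8% in brown fat. The shares over all genes tested in both were 11.3% and 14.4%. In brain they were 5.05% and 6.42%, against 5.95% and 6.64%. In liver they were 6.55% and 6.28%, against 10.9% and 10.6%. Such genes were therefore no more frequent than over all genes, and those below are examples. The difference between the tissues was not tested, and tissues may share mice. Stard4, a sterol carrier, was higher in inguinal fat (0.78) and lower in KO liver (log2 fold change -0.58). Nr1d2, a clock repressor, was lower in inguinal fat (-0.67) and higher in KO brain (log2 fold change 0.35). Irs1 and Itgbl1 were lower in inguinal fat (-0.72 and -1.72) and higher in KO brain (log2 fold changes 0.34 and 0.19). Atf4 and Tyms were higher in inguinal fat (0.25 and 0.66) and lower in KO brain (log2 fold changes -0.34 and -0.87). Nupr1, a stress-induced regulator of transcription, was lower in inguinal fat (-0.62) and higher in KO brown fat (log2 fold change 0.29).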

How the results depend on the processing

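The count of genes called was 0 in the edgeR fit of 6 libraries and with other size factors, filters, TPM values, covariates or the replicate block; it was 1121 in DESeq2, 2573 in a fit of all 24 libraries, 7 in limma-voom and 0 to 1760 when 1 library was left out. The log2 fold change of Prxl2a passed in DESeq2 (-4.59, adjusted p = 2.89e-27), limma-voom (-4.66, adjusted p = 0.047) and the fit of 24 libraries (-4.58, edgeR adjusted p = 9.87e-09), and ran from -4.95 to -4.31 with 1 library left out. Leaving 1 library out gave 1401 to 4585 genes apart and higher and 1464 to 3886 apart and lower, of which 1302 to 3451 and 1428 to 3820 were reported; fewer libraries make separation easier by construction. Without KO libraries 1 and 3 there were 4009 higher and 4054 lower genes apart (3829 and 3173 reported), and without WT libraries 1 and 2 there were 3162 and 3947 (2792 and 3750 reported). Reported genes were 1032 higher and 1234 lower at the 1.5-fold distance and 1213 and 1355 at 4-fold. Markers reversed: Adipoq to 0.57 and Plin1 to 0.28 without KO libraries 1 and 3; Acta1 to 2.76 and Adipoq to 0.18 without WT libraries 1 and 2; Acta1 to 3.52, Adipoq to 0.71 and Plin1 to 0.41 with covariates; and Adipoq ran from -0.44 to 0.28 with 1 library left out, at 0 without KO library 3. The cause was not tested. For single genes other than Prxl2a, 1515 values kept their direction and side of the threshold and 183 passed only in the alternative; of the list medians, 455 moved by less than the spread between libraries and 58 by more. Same-numbered KO and WT libraries had deviations correlated at -0.23, -0.21 and 0.03. Differently numbered ones reached 0.21 (KO library 1 with WT library 2) and 0.22 (KO library 2 with WT library 1). Lymph node and muscle content also enter these deviations, so they cannot settle whether the numbers pair the mice. The replicate block called 0 genes and gave Prxl2a -4.63 (edgeR adjusted p = 0.505). With 3 libraries per group, and KO library 3 close to a mixture of the others, each SD in KO rests on little independent spread.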

Other observations

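Stress and interferon genes showed a mixed picture. Of 22 chaperone genes, 3 were reported lower and 1 higher, against 9.4% and 8.11% of all genes. Hspa1b, an inducible heat shock protein of the Hsp70 family, had 26.5, 20.8 and 23.8 CPM in KO and 33.4, 40.4 and 48.4 CPM in WT (log2 fold change -0.78, SE 0.19, edgeR adjusted p = 0.224); its near-identical copy Hspa1a makes both counts uncertain. In the integrated stress response, 3 of 20 genes were reported higher and 3 lower, against 8.11% and 9.4% of all genes. Atf4, its central transcription factor, had 125, 141 and 131 CPM in KO and 109.6, 118 and 107 CPM in WT, while Atf5, a related factor, had 43.0, 73.3 and 53.2 CPM in KO and 104, 84.9 and 82.9 CPM in WT. Among 20 genes of the unfolded protein response in the endoplasmic reticulum, Syvn1, a ubiquitin ligase, was the only reported member. It was higher, against 8.11% of all genes, with 86.7, 72.9 and 78.6 CPM in KO and 64.3, 62.4 and 62.4 CPM in WT. Of 23 type I interferon genes, 18 were lower with a median of -0.38, which turned to 0.21 without WT library 3 and was -0.64 without WT library 1. Ifih1, a sensor of double-stranded RNA, was the only reported member, against 9.4% of all genes reported as lower. It had 35, 42.0 and 38.3 CPM in KO and 42.7, 51.2 and 65.0 CPM in WT.

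Vessel and nerve genes moved in both directions. Among 22 endothelial and pericyte genes, 2 were reported higher and 3 lower, against 8.11% and 9.4% of all genes. Pecam1, the endothelial adhesion protein CD31, had 212, 104 and 147 CPM in KO and 96.5, 87.6 and 79.7 CPM in WT, with KO libraries 1 and 3 the highest, as for lymphocyte transcripts. Tek, the angiopoietin receptor, had 25, 35.3 and 28.4 CPM in KO and 42.6, 57.0 and 45.9 CPM in WT. Pdgfrb, the pericyte receptor for PDGF-B, had 52.3, 53.1 and 55.2 CPM in KO and 70.4, 87.0 and 71.3 CPM in WT (log2 fold change -0.51, SE 0.13, edgeR adjusted p = 0.225). In peripheral nerve, 2 of 12 genes were reported, both lower, against 9.4% of all genes. Among them was Pmp22, a myelin protein, with 316, 418 and 338 CPM in KO and 512, 618 and 549 CPM in WT. None of 7 red cell genes and none of 3 mesothelium and epidermis genes was apart, against 18.5% of all genes in either direction.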
